A study of Homo sapiens with 17 samples.

Results

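The replication-dependent histone genes were examined in CHP-134 cells, a human neuroblastoma line, and in xenograft tumors grown from them. Members were the entries of both count tables whose symbol begins with HIST1H, HIST2H, HIST3H or HIST4H, without the 15 symbols that end as pseudogenes. This gave 74 of the 60662 shared entries: 6 linker histone H1 genes, 17 H2A, 22 H2B, 14 H3 and 15 H4 genes. Of these, 55 lie in the HIST1 cluster on chromosome 6, 14 in HIST2 and 4 in HIST3 on chromosome 1, and 1, HIST4H4, on chromosome 12.

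Cells were cultured with all-trans retinoic acid (ATRA) at 2 µM for 1, 3 or 6 days, or with the solvent DMSO, and each of these groups has 2 libraries. The tumor libraries were 4 from mice given 25 mg/kg 13-cis retinoic acid by oral gavage 2 times a day (RA tumors) and 5 from control mice, labelled untreated and described in the methods as given vehicle. Tumors were subcutaneous, came from luciferase-labelled CHP-134 cells and grew in female athymic nude mice about 12 weeks old. One cell line stands for all 6 groups. The paper calls the cell replicates independent, without naming separate cultures, and the labels add nothing on this, so p-values may measure technical spread. Total RNA was depleted of ribosomal RNA with no poly(A) selection, and the kit differed between cells and tumors. Library totals were 31607051 to 39422897 counts in cells and 17266558 to 29078889 in tumors.

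Replication-dependent histone genes supply the H1, H2A, H2B, H3 and H4 proteins that package newly made DNA. Their transcription rises in S phase, and most of their mRNAs have no poly(A) tail. Such mRNAs end instead in a short stem-loop, which is bound by the protein SLBP and cut by a complex that holds the U7 small nuclear RNA. Some members also make longer, polyadenylated transcripts, which are known from cells that have stopped dividing. Replacement histones such as H2A.Z and H3.3 come from other genes, which are expressed outside S phase too.

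The stem-loop was searched for in the hg38 genome as GG, any 3 bases, TT, any base, T, any base, A, any 3 bases and CC. The search ran over the 200 bases after each stop codon, or over the gene and 200 bases beyond it where no stop codon was annotated. All 74 members held the stem-loop, in 10 versions, and it began 23 to 68 bases after the stop codon (median 36). The most frequent version was shared by 42 members. The sequences below are shown because the genes moved in different directions, and the 16 stem-loop bases are in capitals between 5 flanking bases.
HIST1H3B, chr6:26031597-26031612, minus strand: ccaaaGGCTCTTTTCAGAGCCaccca
HIST1H2BC, chr6:26123472-26123487, minus strand: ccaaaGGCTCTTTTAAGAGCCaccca
HIST1H2BE, chr6:26184210-26184225, plus strand: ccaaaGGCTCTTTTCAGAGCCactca
HIST1H3E, chr6:26225596-26225611, plus strand: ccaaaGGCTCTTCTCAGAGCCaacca
HIST1H4E, chr6:26205001-26205016, plus strand: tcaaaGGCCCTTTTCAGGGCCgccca
HIST2H4A, chr1:149833032-149833047, plus strand: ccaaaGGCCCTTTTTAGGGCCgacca
HIST2H4B, chr1:149860769-149860784, minus strand: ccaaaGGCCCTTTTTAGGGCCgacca
HIST2H2BC, chr1:149850302-149850317, minus strand: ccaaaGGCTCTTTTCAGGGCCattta
HIST2H2BD, chr1:149843495-149843510, plus strand: ccaaaGGCTCTTTTCAGGGCCactta

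HIST1H3B and HIST1H2BC fell to low levels after 6 days of ATRA. HIST1H2BE, HIST1H3E, HIST2H4B, HIST2H2BC and HIST2H2BD rose at the same time, although each holds a stem-loop. HIST2H4A and HIST2H4B have the same 26 bases here and are near-identical copies, so reads can fit both. The annotation (GENCODE release 44) calls 4 members pseudogenes, HIST2H2BC, HIST2H2BD, HIST2H2BA and HIST3H2BA.

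Promoters of 65 members were found in the RefSeq promoter table (GRCh38.p14), and the 200 bases before the start were searched on both strands for 4 motifs: the octamer ATTTGCAT, the CCAAT box, the TATAAA box and the H1 element AAACACA. The octamer ATTTGCAT, which POU2F1 binds, was in 14 of 18 H2B and 7 of 16 H2A promoters, but in 1 of 12 H3 promoters and in 0 of the 6 H1 and 13 H4 promoters. A gene was counted when the window of any of its starts held the motif. The H3 gene was HIST1H3D, through a farther start whose window is also that of HIST1H2AD. The window before the nearer start of HIST1H3D had no octamer. Of all 35116 promoters, 1.31% held the octamer. The AAACACA element was in all 6 H1 promoters and in 0 members of the other classes, against 3.76% of all promoters. CCAAT was in every H1, H2A, H2B and H3 promoter of this set and in 3 of 13 H4 promoters, against 28% of all promoters, and TATAAA was in 39 of 65 members, against 8.59%. None of the 4 motifs holds another, although some can overlap at their ends, such as TATAAA with AAACACA and CCAAT with TATAAA or the octamer. The octamer sites below, with 10 bases on each side, are shown because the first belongs to a gene that rose after 6 days of ATRA and the others to genes that fell.
HIST1H2BE, chr6:26183643-26183670: aagctccttcATTTGCATgcagacttca
HIST1H2BC, chr6:26124032-26124059: ttcatacctcATTTGCATagctctgccc
HIST1H2BK, chr6:27146887-27146914: tcttcaccttATTTGCATgagaggtcct
HIST2H2BE, chr1:149886711-149886738: cggagccctaATTTGCATaaggtggtta

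All 4 are written on the strand of the gene. The octamer of HIST1H2BC lies between 2 genes that point away from each other, and the same bases are in the window of HIST1H2AC. The first octamer base was 108 bases before the start of HIST1H2BE and 123 bases before that of HIST1H2BC, against 46 bases in HIST2H2BE. For HIST1H2BE this is the start of its transcript of 470 bases. Another transcript of 2585 bases starts upstream of the octamer, at chr6:26172059, and the counts do not tell which of them rose. Among called members with a promoter in the table, 1 of 3 that rose after 6 days of ATRA and 18 of 48 that fell held the octamer. HIST1H3D is among the 18 only through the window it shares with HIST1H2AD. The windows of HIST1H1C and HIST1H3B are printed whole as examples of an H1 and an H3 promoter without it, with the CCAAT box, the TATAAA box and the AAACACA element in capitals, whichever strand they were found on.
HIST1H1C, chr6:26056471-26056670, minus strand: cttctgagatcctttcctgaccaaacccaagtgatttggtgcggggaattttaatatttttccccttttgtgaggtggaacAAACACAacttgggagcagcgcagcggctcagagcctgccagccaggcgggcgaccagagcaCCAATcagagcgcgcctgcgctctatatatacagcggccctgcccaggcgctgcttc
HIST1H3B, chr6:26032100-26032299, minus strand: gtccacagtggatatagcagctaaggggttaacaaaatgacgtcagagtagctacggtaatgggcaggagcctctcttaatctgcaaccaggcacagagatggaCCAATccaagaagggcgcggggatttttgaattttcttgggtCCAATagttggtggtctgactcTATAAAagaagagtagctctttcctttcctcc

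The histone share of each library was summed first. Histone genes took 0.794% and 0.812% of counts in DMSO cells, 0.794% and 0.728% after 1 day of ATRA, 0.563% and 0.545% after 3 days, and 0.185% and 0.188% after 6 days. The groups at 3 and 6 days lay below the DMSO cells without overlap, and the 1-day group touched them. In tumors the share was 0.218%, 0.31%, 0.245% and 0.377% in the 4 RA tumors, against 0.319%, 0.361%, 0.321%, 0.253% and 0.288% in the 5 control tumors. The tumor groups overlapped over nearly their whole ranges.

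Levels are CPM, counts brought to a common library total and scaled by the trimmed mean of M-values (TMM) over all 17 libraries. Between groups they compare 1 gene with itself and are not corrected for gene length. In bulk RNA, fewer cells in S phase and less histone RNA per cell cannot be told apart. The paper reports that most cells of this line die over the ATRA course, and that the survivors take on neuron-like features. The 6-day libraries may therefore hold RNA mainly from surviving cells. The part of this cell loss in the histone results was not tested. The sum over all 74 members was 1990 ± 39.3 CPM after 6 days of ATRA, against 8640 ± 138 CPM in DMSO cells (SD, n = 2 each), which is 4.33-fold lower. The H3 genes had the lowest ratio, with 224 ± 5.47 CPM after 6 days and 1660 ± 62 CPM in DMSO cells (7.41-fold lower), followed by H2A with 414 ± 17.5 and 2250 ± 36.2 CPM (5.42-fold lower). H1 summed to 189 ± 1.13 CPM after 6 days and to 796 ± 6.22 CPM in DMSO cells, 4.2-fold lower. H4 was 3.43-fold and H2B 3.34-fold lower, and these are the classes that hold 4 of the 5 members that rose. The H2B sum includes HIST2H2BC and HIST2H2BD, annotated as pseudogenes, which averaged 140 and 75.4 of its 704 CPM after 6 days. In DMSO cells they averaged 21.3 and 12 of 2350 CPM, so the H2B ratio depends in part on them. How reads were shared among H4 members does not change the H4 sum. After 3 days the total was 5800 ± 147 CPM, and the 5 classes stood 1.42-fold to 1.53-fold below DMSO cells. After 1 day it was 8060 ± 598 CPM, a difference of 1.07-fold that is close to the spread of the 1-day replicates.

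**Figure D1:**
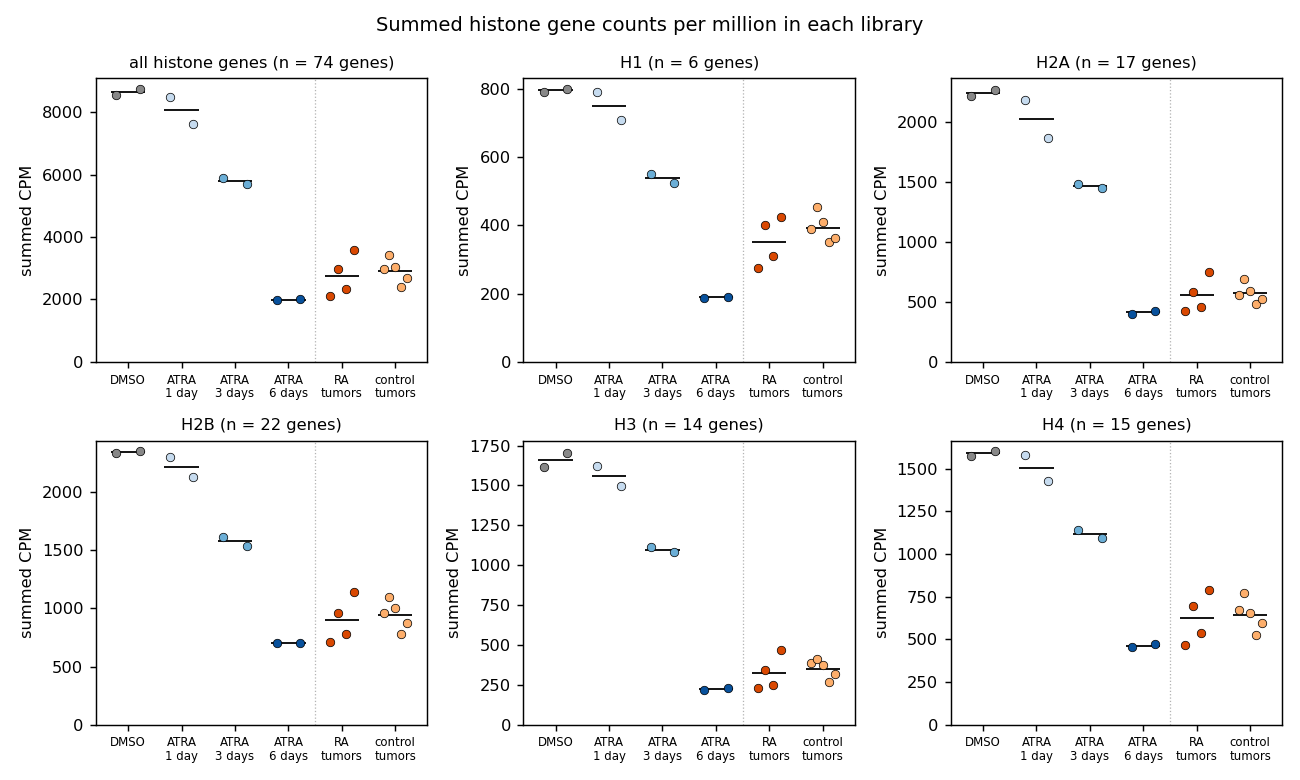
Summed CPM (vertical axis) of all histone genes and of the 5 classes in each library, with DMSO cells and 1, 3 and 6 days of ATRA on the left of each panel and RA tumors and control tumors on the right. Points are libraries and lines are group means, and the 6-day cells have the lowest total of the 4 cell groups in every class, from 189 CPM for H1 to 704 CPM for H2B.

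A gene was called when edgeR's quasi-likelihood test gave a Benjamini-Hochberg adjusted p (FDR) under 0.05 over all genes tested and the fold change was over 2 (1 on the log2 scale). Of the 74 members, 59 passed the filter on low counts in cells and 60 in tumors and in all libraries together. The 14 that passed in no fit never had more than 13 counts in a library. Among these was HIST1H4C, with 0 to 3 counts in each of 17 libraries. HIST1H4K had 0 counts in all 17, which allows up to 0.00652 CPM on a floor of 3 counts over the series, and this covers counting error only. A gene can be missed where reads fit several near-identical copies, because the authors' program shares such reads out by estimate. In cells 37 members had values that are not whole, and in tumors 48. HIST1H3E and HIST1H4E had whole values in all 17 libraries. In the annotation both overlap unnamed genes on the same strand, and whole values do not show whether reads came from those.

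After 6 days of ATRA, 52 members fell and 5 rose against DMSO cells, of 59 tested. Over all 20237 genes tested, 12.3% were called lower and 18.8% higher, so the share of members called lower (88.1%) stood far above the background and the share called higher (8.47%) below it. The median log2 fold change of the tested members was -2.6, against 0.041 for all genes. The 2 remaining members, HIST3H2A and HIST1H4E, had adjusted p-values under 0.05 with smaller changes. By class, 4 of 4 tested H1 genes, 14 of 15 H2A, 16 of 19 H2B, 10 of 11 H3 and 8 of 10 H4 genes fell, with class medians of -2.14, -2.82, -2.55, -3.21 and -2.41. By cluster, the median was -2.7 over 43 HIST1 genes, -2.56 over 12 HIST2 genes and -1.69 over 3 HIST3 genes.

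Among the linker histones, HIST1H1C (H1.2) had 97.2 and 98.9 CPM after 6 days, against 413 and 407 CPM in DMSO cells. Both 6-day values lay below the 1-day and 3-day values as well. Its log2 fold change was -2.10 ± 0.09 (SE), with an edgeR FDR of 2.6e-05. HIST1H1E (H1.4) fell by nearly the same ratio, with 68.4 and 69.2 CPM after 6 days against 276 and 288 CPM in DMSO cells (log2 fold change -2.07 ± 0.03). HIST1H1B (H1.5) and HIST1H1D (H1.3) gave -2.19 and -2.46.

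The core histone classes had lower medians than H1. HIST1H3B, which encodes the replicative H3.1 protein, had 44.6 and 45.3 CPM after 6 days, against 341 and 353 CPM in DMSO cells (log2 fold change -2.98 ± 0.03). HIST1H3D had the lowest fold change of all members at 1.98 and 2.28 CPM after 6 days, against 37.7 and 36.4 CPM in DMSO cells (-4.15 ± 0.09). HIST1H3J, HIST2H3D and HIST1H2AH followed with -3.52, -3.35 and -3.34. HIST1H3D and HIST1H3J had values that are not whole in 8 cell libraries and HIST2H3D in 7, so their folds can depend on how reads were shared. HIST1H2AH had such values in 1. HIST1H2AH (H2A) had 11 and 11.3 CPM after 6 days, against 109 and 112 CPM in DMSO cells. HIST1H2AG (H2A) had 44.9 and 48 CPM, against 349 and 362 CPM. In all of these genes the 6-day libraries lay far below every other cell library.

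HIST2H3A and HIST2H3C, copies that encode H3.2, were given the same value in every library, 30.6 and 32.5 CPM after 6 days against 295 and 310 CPM in DMSO cells, and count as 1 measurement. HIST2H2AA3 was at 0 in all 8 cell libraries, and its copy HIST2H2AA4 held 80.2 and 87.3 CPM after 6 days, against 618 and 656 CPM in DMSO cells. In tumors the reads were shared between these copies. Summed before the fit, an alternative chosen after seeing the data, HIST2H2AA3 with HIST2H2AA4 fell by 2.96 on the log2 scale and HIST2H3A with HIST2H3C by 3.29.

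The members with described poly(A) transcripts (HIST1H1C, HIST1H2AC, HIST1H2BC, HIST1H2BD, HIST1H2BK and HIST2H2BE) all fell, 6 of 6, with a median of -1.88. Of all tested members 88.1% fell, with a lower median of -2.6, and of all genes 12.3% fell. HIST1H2BC fell most, with 42.7 and 42.2 CPM after 6 days against 337 and 350 CPM in DMSO cells (log2 fold change -3.05 ± 0.03). HIST1H2AC, its neighbour across the shared octamer, had 73 and 73.9 CPM after 6 days against 179 and 178 CPM in DMSO cells (-1.31 ± 0.06). The 2 genes of this pair therefore fell by different amounts. HIST2H2BE stood at 90.7 and 89.8 CPM after 6 days, against 252 and 240 CPM in DMSO cells (-1.48 ± 0.10), HIST1H2BD gave -1.66 and HIST1H2BK -2.62.

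The smallest falls were outside the largest cluster or in H4. HIST3H2A had 32.8 and 33.2 CPM after 6 days, against 48.1 and 47.5 CPM in DMSO cells (log2 fold change -0.57 ± 0.05, FDR 6.3e-13, edgeR). HIST1H4E had 96.7 and 101 CPM, against 169 and 170 CPM in DMSO cells (-0.81 ± 0.09, FDR 0.0011, edgeR). HIST4H4, the only member on chromosome 12, had 6.84 and 6.96 CPM, against 14.5 and 13.6 CPM (-1.06 ± 0.09). Each pair of 6-day values lay below each pair of DMSO values.

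The members that rose after 6 days were HIST2H2BC, HIST2H2BD, HIST2H4B, HIST1H2BE and HIST1H3E. HIST2H2BC had 142 and 139 CPM after 6 days, against 20.1 and 22.5 CPM in DMSO cells (log2 fold change 2.69 ± 0.04), and HIST2H2BD had 75.9 and 74.8 CPM, against 12.7 and 11.2 CPM (2.62 ± 0.06). HIST2H4B had 57.8 and 59.7 CPM, against 12.1 and 10.7 CPM in DMSO cells (2.33 ± 0.07). For these genes the 6-day libraries were the highest of the cell libraries by a wide margin. HIST1H2BE had 12.2 and 13.7 CPM after 6 days, against 3 and 2.81 CPM in DMSO cells (2.12 ± 0.13). HIST1H3E had 34.8 and 32.7 CPM, against 14.4 and 15.2 CPM in DMSO cells (1.15 ± 0.06, FDR 2.3e-18, edgeR). HIST1H3E is an H3.1 gene like HIST1H3B, which fell in the same libraries.

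The rise of HIST2H4B depends on how reads were shared with HIST2H4A, which had 80.6 and 86.6 CPM after 6 days, against 471 and 494 CPM in DMSO cells. With both copies summed, the log2 fold change was -1.83 ± 0.09, a fall (FDR 3.86e-05, edgeR). HIST2H2BC and HIST2H2BD, each annotated as a transcribed pseudogene of H2B and each lying in an unnamed gene on the same strand, had values that are not whole in all 17 libraries. HIST1H2BE had such values in 5 of 8 cell libraries. HIST1H2BE and HIST1H3E also overlap unnamed genes on the same strand.

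The annotation gives some members transcripts that do not end at the stem-loop. HIST1H2BE has a transcript of 470 bases that ends there and one of 2585 bases in 4 exons, and HIST1H3E has one of 482 bases and one of 2679 bases. Of the tested members, 19 had at least 1 transcript that did not hold the stem-loop in its last 60 bases. In some of them, such as HIST1H3J and HIST3H2BA, that transcript stops before the stem-loop and does not run past it. Of the 19, 14 fell and 4 rose after 6 days, with a median log2 fold change of -1.69. Of the other 40, 38 fell and 1, HIST2H2BD, rose, with a median of -2.81. Of all tested members 88.1% fell and 8.47% rose, against 12.3% and 18.8% of all genes. The counts are per gene and do not tell which transcript the reads came from. In this annotation 35 of the 74 members overlap another gene, 24 of them on the same strand, and whether the counting used strand is not given in the sources used here.

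**Figure D2:**
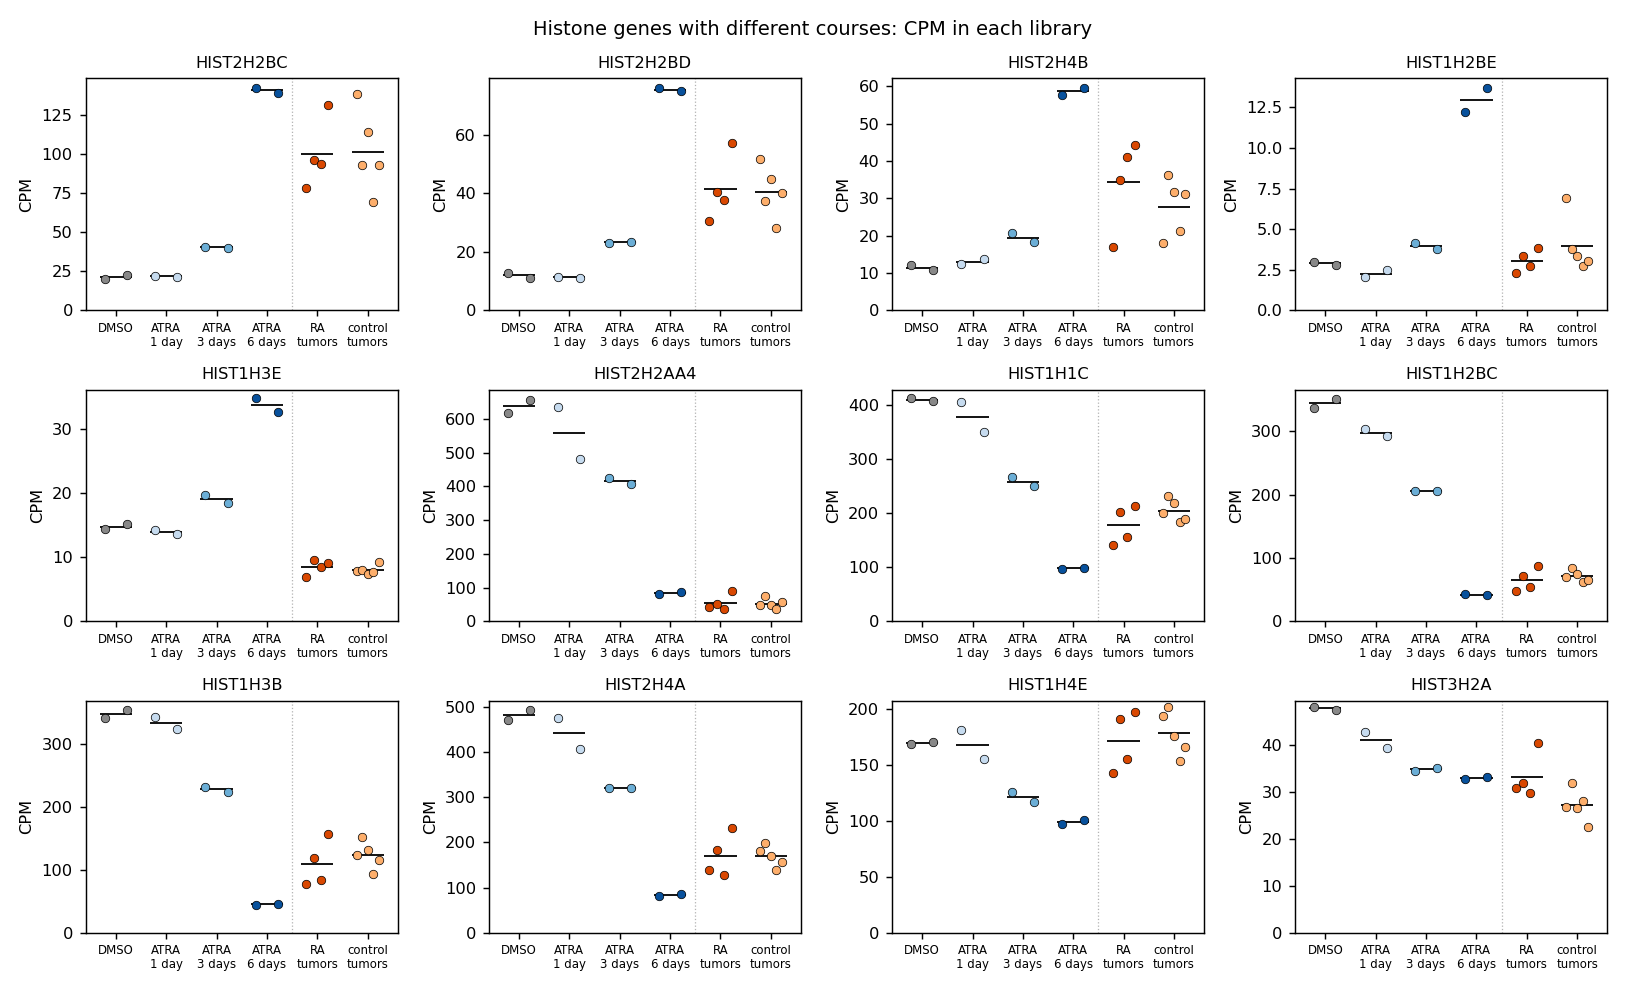
CPM (vertical axis) of 12 histone genes in each library, with points for libraries and lines for group means. HIST2H2BC, HIST2H2BD, HIST2H4B, HIST1H2BE and HIST1H3E are higher in the 6-day cells than in the other cell groups, while HIST1H3B falls to 44.6 and 45.3 CPM and HIST1H4E to 96.7 and 101 CPM there.

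After 1 day of ATRA 0 of 59 members were called, with the 2-fold minimum, against 0.791% of all genes called lower and 1.95% called higher. At an FDR under 0.05 alone 12 members were lower and 1 higher by edgeR, which is 20.3% and 1.69% of the members tested, against 13.3% and 13.1% of all genes, and 20 had an unadjusted p under 0.05. Of the 59, 49 lay below 0 and 10 above, with a median of -0.09, against 0.003 for all genes. DESeq2 with the 2-fold minimum also called 0. The 1 member that was higher, HIST1H2BJ, gave 0.20 ± 0.04, and the member with the lowest FDR, HIST1H2BC, gave -0.19 ± 0.02. HIST1H2BC had 303 and 292 CPM after 1 day, against 337 and 350 CPM in DMSO cells.

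After 3 days the changes were small but ran through almost all members. With the 2-fold minimum 0 of 59 were called by edgeR and by DESeq2, against 2.43% of all genes called lower and 5.45% called higher. At an FDR under 0.05 alone 53 members were lower and 5 higher, against 23.1% and 21.9% of all genes, and 58 had an unadjusted p under 0.05. The median was -0.52 and the lowest value -0.86, for HIST3H2BB. The 5 that were higher were the same 5 that rose after 6 days. HIST2H2BD gave 0.99 ± 0.07, just under the threshold, with 23.1 and 23.4 CPM after 3 days against 12.7 and 11.2 CPM in DMSO cells, and HIST2H2BC gave 0.96 ± 0.05. Without DMSO replicate 1 HIST2H2BD was called (1.08), and without DMSO replicate 2 HIST2H2BC was called (1.04). These comparisons and the one at 6 days share the same 2 DMSO libraries.

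Between 3 and 6 days, 48 members fell and 4 rose, of 59, against 8.41% and 12.7% of all genes. The median was -2.04 over this interval, against -0.52 between DMSO cells and 3 days. HIST1H3D had 1.98 and 2.28 CPM after 6 days, against 22.1 and 19.8 CPM after 3 days (log2 fold change -3.36 ± 0.10). HIST2H2BC rose again, at 142 and 139 CPM after 6 days against 40.7 and 40.1 CPM after 3 days (1.73 ± 0.04). HIST1H3E gave 0.76 ± 0.06, and HIST1H2AC (-0.72), HIST2H2BE (-0.94) and HIST3H2BB (-0.82) did not reach 2-fold in this step. Without replicate 2 of the 3-day cells HIST2H2BE did (-1.02).

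**Figure D3:**
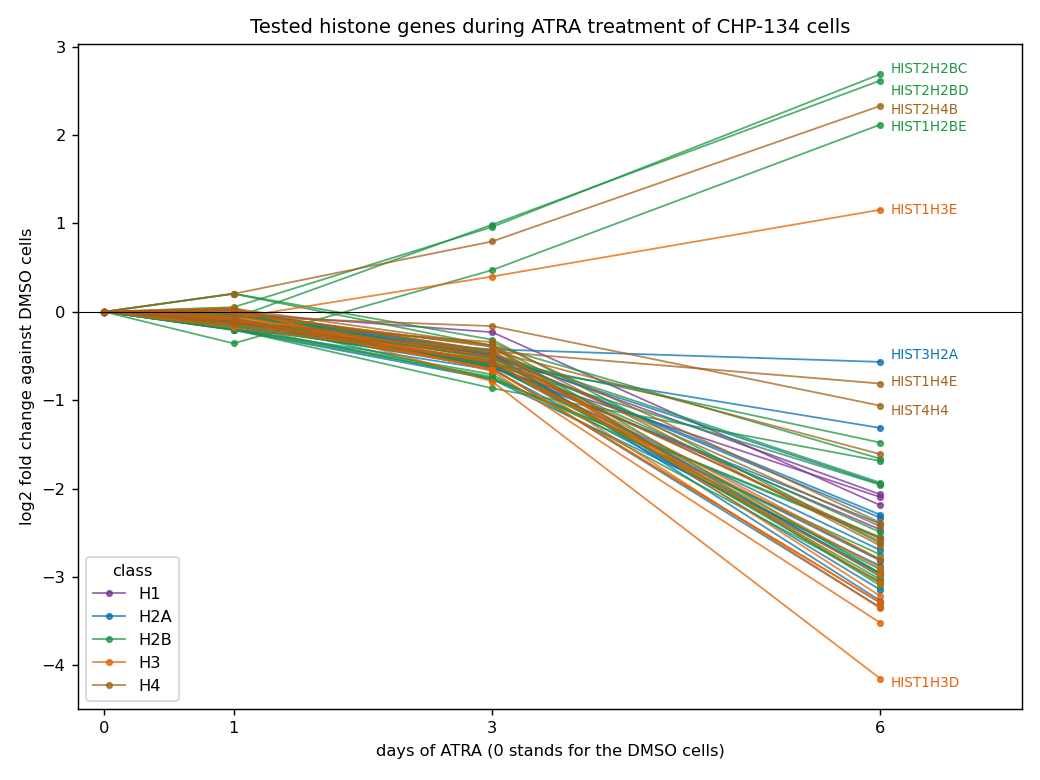
Log2 fold change against DMSO cells (vertical axis) of the 59 tested histone genes after 1, 3 and 6 days of ATRA (horizontal axis), 1 line per gene and coloured by class. The lines stay near 0 at 1 day, reach a median of -0.52 at 3 days and spread at 6 days from -4.15 for HIST1H3D to 2.69 for HIST2H2BC.

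Lists of related genes were set beside the members after 6 days. Over all genes tested 12.3% fell and 18.8% rose, with a median of 0.041. Of 25 genes of DNA synthesis and S phase, 25 fell, with a median of -2.34. RRM2, a subunit of ribonucleotide reductase, had the lowest value (-3.57 ± 0.03), and PCNA, the sliding clamp of DNA polymerase, gave -2.36 ± 0.04. Of 20 histone chaperones, 11 fell and 0 rose, with a median of -1.26. ASF1B, which hands H3 and H4 to the assembly factors, gave -3.30 ± 0.08, and CHAF1A and CHAF1B, subunits of the chromatin assembly factor CAF-1, gave -2.31 and -2.53. HIRA, which deposits H3.3 outside replication, gave -0.47 ± 0.04 and was not called.

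Of 13 factors for transcription and 3′ end formation of histone mRNA, 4 fell, SLBP, CSTF2, ERI1 and ZNF473, with a list median of -0.59. SLBP, the stem-loop binding protein, averaged 21 CPM after 6 days and 73.9 CPM in DMSO cells (log2 fold change -1.85 ± 0.05). NPAT, the coactivator of histone transcription, gave -0.59 ± 0.04, and POU2F1, which binds the octamer, gave -0.13 ± 0.03. LSM11, a part of the U7 particle, gave -0.10 ± 0.05. Of 11 tested replacement histones, 3 fell and 1 rose, with a median of -0.37. The 3 were H2AFX (-2.53), CENPA (-2.22) and H2AFZ (-1.60). H1F0, the linker histone H1.0 of cells that have stopped dividing, rose with 166 CPM in both 6-day libraries and 51.8 and 55.8 CPM in DMSO cells (log2 fold change 1.59 ± 0.04). H3F3A and H3F3B, the genes of H3.3, gave -0.08 and -0.24.

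RA tumors were compared with control tumors, a contrast that differs from the one in cells in retinoid, dose, time and host. The paper describes dosing in mice over weeks, and the tumors it measured for retinoid were collected within weeks of the last treatment. With the 2-fold minimum 0 of 60 tested members were called by edgeR and by DESeq2, against 0.0379% of all 21098 genes called lower and 0.246% called higher. At an FDR under 0.05 alone edgeR called 0 members, against 0.218% of all genes lower and 1.4% higher, and 6 members had an unadjusted p under 0.05. The median log2 fold change of the members was -0.09, with 42 below 0 and 18 above, and the range was -0.54 to 0.58. The total was 2750 ± 662 CPM in RA tumors (SD, n = 4) and 2900 ± 385 CPM in control tumors (SD, n = 5). The difference was smaller than the spread within either group. Few genes of any kind were called in this contrast, so 0 called members does not set the histone genes apart. The common coefficient of variation between libraries of a group was 13.9% in the tumor fit and 2.65% in the cell fit.

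HIST1H3B had 77.5, 118, 84.2 and 156 CPM in the RA tumors, against 124, 152, 132, 93.3 and 116 CPM in the control tumors. RA tumor 4 was the highest of all 9 tumors and RA tumor 1 the lowest, so the groups overlapped (log2 fold change -0.18 ± 0.22, FDR 0.76, edgeR). HIST1H1C had 142, 202, 156 and 214 CPM in RA tumors, against 201, 232, 219, 183 and 189 CPM in control tumors (-0.20 ± 0.11, FDR 0.42, edgeR). HIST1H4E, an H4 gene with whole values in every library, had 143, 191, 155 and 197 CPM in RA tumors, against 194, 202, 176, 153 and 166 CPM in control tumors (-0.06 ± 0.10). Here too the ranges overlapped almost wholly.

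None of the members that rose in cells was called in RA tumors. HIST2H2BC had 78, 96.1, 93.7 and 131 CPM in RA tumors, against 138, 92.7, 114, 69.2 and 93.1 CPM in control tumors (-0.03 ± 0.21). HIST1H3E had 6.94, 9.6, 8.44 and 9.17 CPM in RA tumors, against 7.94, 8.01, 7.44, 7.79 and 9.22 CPM in control tumors (0.08 ± 0.12). HIST2H4B gave 0.31 ± 0.30, HIST2H2BD 0.04 ± 0.20 and HIST1H2BE -0.37 ± 0.26. HIST1H3D, which had the highest fold change (0.58 ± 0.62), rested on RA tumor 4, at 9.37 CPM against 1.33 to 2.5 CPM in the other RA tumors, and without that tumor its value was -0.47. The S phase list held 0 called genes of 25, with a median of -0.22, and H1F0 averaged 69.6 ± 9.65 CPM in RA tumors (SD, n = 4) and 52 ± 3.95 CPM in control tumors (SD, n = 5), a log2 fold change of 0.42 ± 0.09 (FDR 0.039, edgeR) that stayed under 2-fold.

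**Figure D4:**
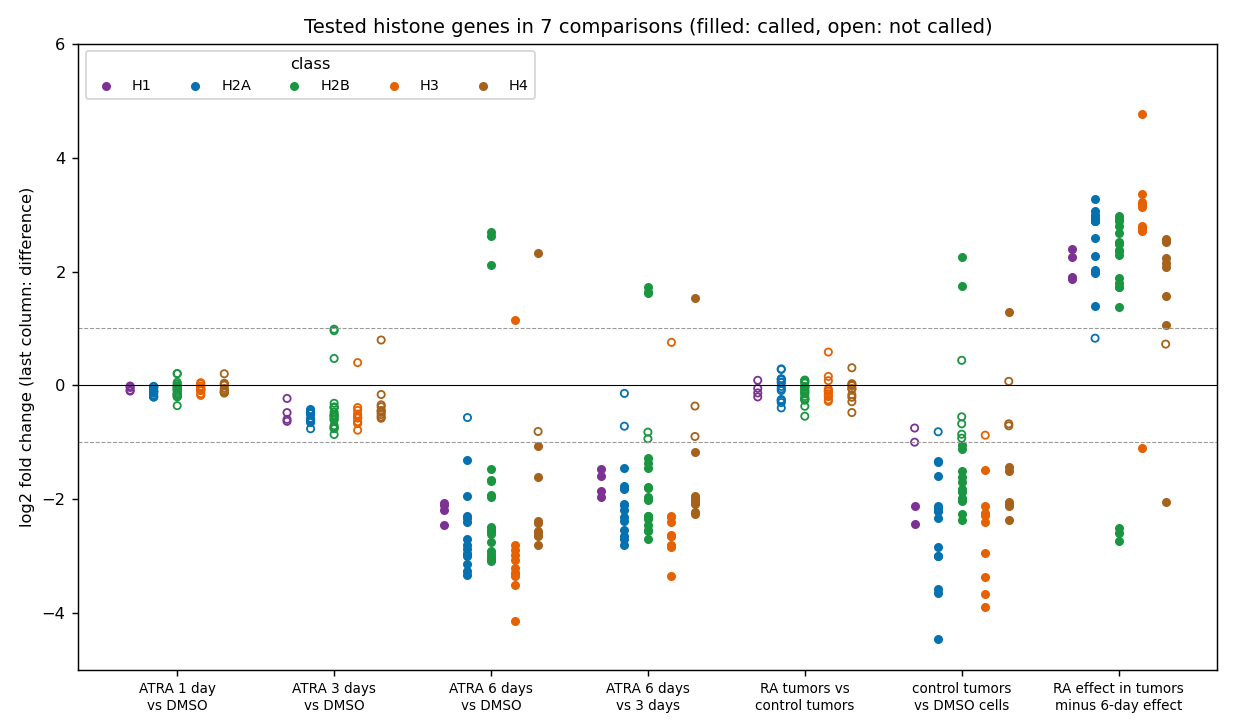
Log2 fold change (vertical axis) of each tested histone gene in the 7 comparisons, coloured by class, with filled points for called genes and dashed lines at the 2-fold thresholds. HIST2H2AA3 is left out. The RA tumors sit between -0.54 and 0.58 with no filled point, where 0.0379% of all genes were called lower and 0.246% higher. The 6-day cells have 57 filled points, where 12.3% of all genes were called lower and 18.8% higher.

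The difference between the effects was tested in 1 fit over all 17 libraries, by subtracting the 6-day ATRA effect in cells from the RA effect in tumors. Of 60 tested members, 52 were called with a positive difference and 5 with a negative one, against 7.78% and 13.1% of all 25787 genes. A positive difference here means that the fall seen in cells was smaller or absent in tumors. The median difference was 2.44 on the log2 scale, against -0.118 for all genes. The highest differences belonged to HIST1H3D (4.76 ± 0.89), HIST1H3G (3.36 ± 0.52) and HIST1H2AJ (3.27 ± 0.31, or 2.96 ± 0.35 summed with HIST1H2AI). The 5 negative ones were the members that rose in cells, from HIST2H2BC (-2.74 ± 0.33) to HIST1H3E (-1.10 ± 0.16). HIST1H4E (0.72 ± 0.17) and HIST3H2A (0.83 ± 0.16) did not reach the threshold. Tumors and cells differ in the retinoid, dose, time and kit as well as in the host, and these cannot be told apart.

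Control tumors were compared with DMSO cells. The kit and growth in a mouse change together in this contrast and cannot be told apart, and the tumors came from luciferase-labelled cells. Of 60 tested members, 44 were lower and 4 higher in control tumors, against 11.4% and 31.5% of all genes. The median was -2 for the members, also with HIST2H2AA3 at its lower bound, and 0.246 for all genes. The total was 2900 ± 385 CPM in control tumors (n = 5) and 8640 ± 138 CPM in DMSO cells (SD, n = 2), 2.98-fold lower. H3 genes were again the lowest class (4.73-fold lower), followed by H2A (3.93-fold), H2B (2.49-fold), H4 (2.47-fold) and H1 (2.03-fold). Every control tumor had a lower total than either DMSO library.

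HIST1H2AJ had 4.64, 5.03, 5.23, 4.07 and 3.4 CPM in control tumors, against 102 and 95.3 CPM in DMSO cells (log2 fold change -4.46 ± 0.19). Its reads are shared with HIST1H2AI: the sum of their counts was whole, within 0.015, in all 7 cell libraries where neither value was. In tumors this held in 5 of 9 such libraries. Summed before the fit, also chosen after seeing the data, the pair had 39.5 to 69.6 CPM in control tumors, against 309 and 305 CPM in DMSO cells (-2.63 ± 0.22), and 41.7 and 44.1 CPM in 6-day cells. HIST1H3D, HIST2H3D and HIST1H2AK followed with -3.89, -3.67 and -3.65, and had values that are not whole in 8, 9 and 9 tumor libraries. HIST1H3B had 93.3 to 152 CPM in control tumors, against 341 and 353 CPM in DMSO cells (-1.49 ± 0.22). HIST1H4E had 153 to 202 CPM in control tumors, against 169 and 170 CPM in DMSO cells, and was not called (0.07 ± 0.12). HIST1H2BG, at 100 to 145 CPM in control tumors against 180 and 179 CPM in DMSO cells, gave -0.55 ± 0.14. The H1 genes HIST1H1C (-1.0 ± 0.13) and HIST1H1E (-0.75 ± 0.14) were lower with an FDR under 0.05 but below 2-fold, while HIST1H1B (-2.44) and HIST1H1D (-2.11) were called. HIST1H1C was called without control tumor 2 (-1.05) or control tumor 3 (-1.02).

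The 4 members called higher in control tumors were HIST2H2BC, HIST2H2BD, HIST2H4B and HIST2H2AA3. HIST2H2BC had 138, 92.7, 114, 69.2 and 93.1 CPM in control tumors, against 20.1 and 22.5 CPM in DMSO cells (log2 fold change 2.25 ± 0.26). HIST2H2BD had 28 to 51.8 CPM in control tumors, against 12.7 and 11.2 CPM (1.75 ± 0.25). HIST2H4B gave 1.28 ± 0.35, and its sum with HIST2H4A gave -1.33 ± 0.18, a fall. HIST2H2AA3 was at 0 in every cell library and had 101 to 130 CPM in control tumors. With a floor of 3 counts over the 2 DMSO libraries this is at least 2630-fold higher, but summed with HIST2H2AA4 the pair was lower (-1.92 ± 0.20). HIST1H3E went the other way from the 6-day cells, at 7.44 to 9.22 CPM in control tumors against 14.4 and 15.2 CPM in DMSO cells (-0.88 ± 0.11). HIST1H2BE had 2.75 to 6.91 CPM in control tumors, against 3 and 2.81 CPM in DMSO cells (0.44 ± 0.27).

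In control tumors 19 of the 25 S phase genes were lower than in DMSO cells and 0 higher (median -1.19), as were 6 of 20 chaperones, 5 of 6 poly(A) list members and 1 of 13 histone mRNA factors, LSM10. Of 12 replacement histones 4 were lower, H2AFX (-2.71), H3F3C (-2.18), H1FX (-1.25) and CENPA (-1.15). H1F0, which was higher in 6-day cells, gave -0.05 ± 0.10. Over all genes 11.4% were lower and 31.5% higher in this contrast.

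**Figure D5:**
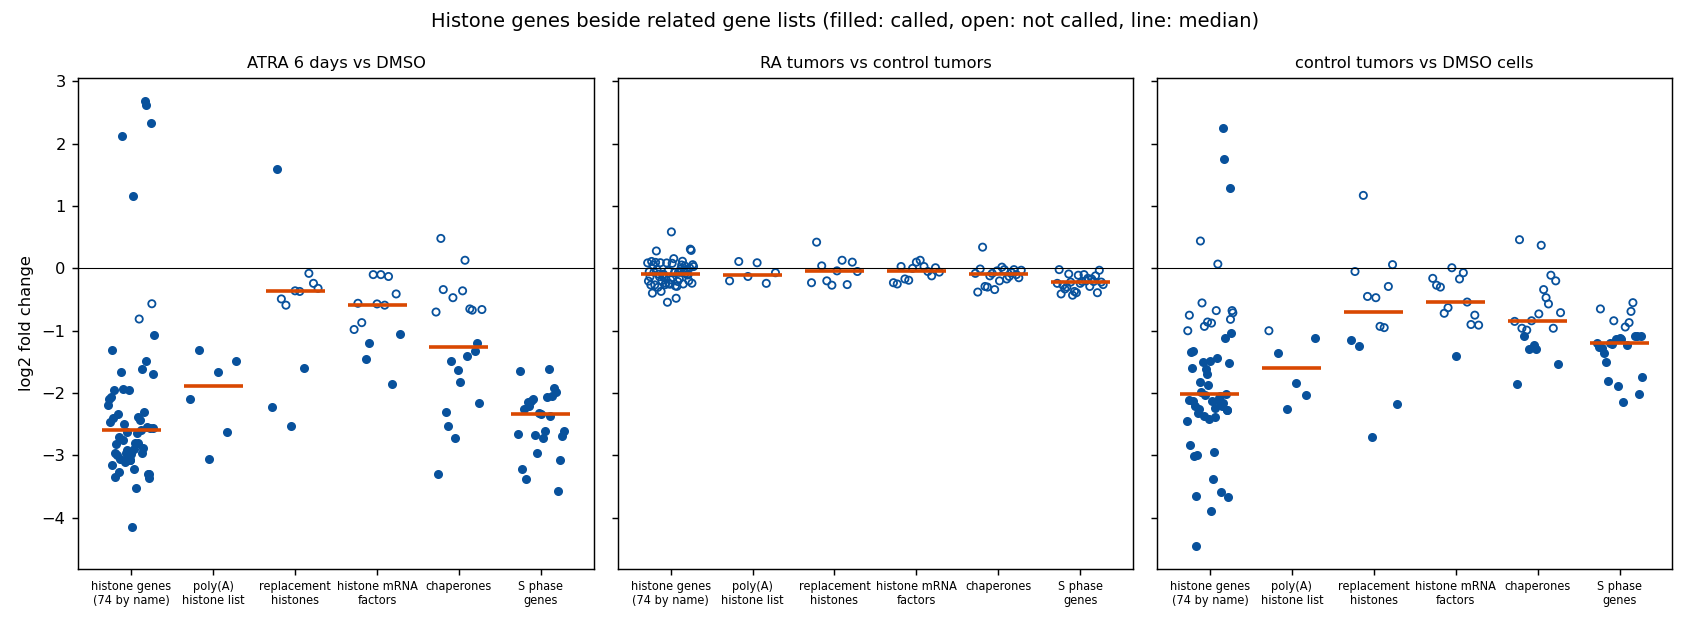
Log2 fold change (vertical axis) of the tested histone genes and of 5 related gene lists in 3 comparisons, with filled points for called genes and lines for medians. The histone median is -2.6 in 6-day cells and the S phase median -2.34, and in RA tumors every list median lies between -0.22 and 0. HIST2H2AA3 is left out.

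Markers of other cells were read beside these results. The 6 fibroblast markers summed to 24.8 to 38.5 CPM in RA tumors and 25.9 to 117 CPM in control tumors, against 36.3 to 36.4 CPM in DMSO cells. The 5 leukocyte markers summed to at most 3.89 CPM, and the 4 red cell markers to at most 1.54 CPM, in any library. Of the 5 endothelial markers, CLDN5 averaged 149 CPM in 6-day cells and 1.62 CPM in DMSO cells, while PECAM1, CDH5, KDR and VWF each averaged at most 0.355 CPM in any cell group. In tumors the 5 summed to 2.5 to 4.99 CPM with RA and 2.42 to 7.51 CPM in controls. Their part in the histone results was not tested, and whether mouse reads were removed from the tumor libraries is not given in the sources used here.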

How the data were processed

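Per the paper's methods and the labels, total RNA was extracted with TRIzol, depleted of ribosomal RNA (Ribo-Zero Plus for cells, RiboErase for tumors) and sequenced. Trimming by the authors used Trim Galore 0.4.4, alignment to hg38 used STAR 2.7.10a, and RSEM 1.3.3 gave the expected counts of each gene. Both deposited tables hold these expected counts, which were rounded here. The annotation release and the strand setting are not given in the sources used here. RSEM shares reads that fit several genes, so 37.67% of the histone values in cells and 44.14% in tumors were not whole, against 7.56% and 14.66% of all values. Values of 0 are always whole, and among values above 0 the shares were 43.05% and 50.78%, against 17.14% and 27.09%. The 92 additional entries of the cell table were all 0.

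Models were fitted in edgeR 4.0.16 (R 4.3.3) with TMM scaling, filterByExpr (minimum count 10) and robust quasi-likelihood tests: cells (8 libraries, 4 groups), tumors (9, 2 groups) and all 17 (6 groups). P-values were adjusted by Benjamini-Hochberg over all genes tested, and SE is the log2 fold change over the square root of F. DESeq2 1.42.0, other scalings, no filter, a replicate block, summed copies and leaving out each library were alternatives. The fits were tested on simulated data. Replicates differed by more than sampling noise in every pair.

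Named genes were the 4 members of each class with the highest mean CPM, the poly(A) list, and up to 5 called members with the largest change in each direction of each comparison. HIST3H2A, HIST1H4E, HIST4H4, HIST1H2BG, HIST3H2BB and HIST1H2BJ, as far as they fall outside it, were chosen after their values were seen. Members and lists were chosen with earlier results of these data known. Gene positions and transcripts came from GENCODE 44, by Ensembl ID for 72 members and by symbol synonym for 2, promoters from RefSeq. The summed markers of the tumor lineage are not reported here.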

Additional observations from a re-analysis of the deposited data

Results flagged for a closer look

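The response to retinoic acid differed between tumors and cells for 57 of the 60 tested members, by the test of the difference itself in the fit of all libraries (edgeR, FDR under 0.05 and over 2-fold). Of these, 52 were positive and 5 negative, against 7.78% and 13.1% of all 25787 genes. Retinoid, dose, time, kit and host all differ between tumors and cells and cannot be told apart. The highest differences, tumors minus cells on the log2 scale, were those of HIST1H3D (4.76), HIST1H3G (3.36), HIST1H2AJ (3.27), HIST1H3J (3.22) and HIST2H3A (3.17). The negative ones were those of HIST2H2BC (-2.74), HIST2H2BD (-2.60), HIST1H2BE (-2.51), HIST2H4B (-2.05) and HIST1H3E (-1.10). Without RA tumor 4 the value of HIST1H3D was 3.66, and summed with HIST1H2AI that of HIST1H2AJ was 2.96.

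Single tumors stood apart from their group in 4 of 84 groups of values examined, about the share that chance gives (1 in 20). HIST1H3D had 9.37 CPM in RA tumor 4, against 1.33 to 2.5 CPM in the other RA tumors. HIST1H2BE had 6.91 CPM in control tumor 1, against 2.75 to 3.75 CPM in the others. In control tumor 2 HIST1H2AE had 99.7 CPM, against 67.1 to 76.2 CPM, and HIST1H4J had 118 CPM, against 70.7 to 82 CPM in the other control tumors.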

How the results depend on the processing

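The counts of members called stayed within 1.5 times of their value in all 7 comparisons under DESeq2, RLE scaling, library totals, no filter, summed copies and a replicate block. Without the 2-fold minimum they became 13 at 1 day and 58 at 3 days. Leaving out single libraries gave 0 to 1 at 3 days, 57 in every case at 6 days against DMSO, 52 to 53 for 6 days against 3 days, 47 to 49 for control tumors against DMSO cells, 56 to 57 for the difference of effects, and 0 at 1 day and in RA tumors. With a single library left in an arm, that library is assumed to vary like the others. With summed copies 55 members were called after 6 days, of which 4 rose, and with HIST1H2AI and HIST1H2AJ summed 56, of which 5 rose.

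Replicate numbers did not pair the libraries: same-numbered deviations correlated between -0.04 and 0.03 in cells and between -0.45 and 0.18 in tumors. The replicate block gave 57 calls at 6 days, 52 for 6 days against 3 days, 47 for control tumors and 55 for the difference of effects, and 0 elsewhere. HIST1H2AC lost its call in that difference (FDR 0.0503, edgeR).

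On library totals the log2 ratio of H2B after 6 days was -1.73, and the ratios of control tumors to DMSO cells were -1.38 for all members, -0.83 for H1, -1.78 for H2A, -1.12 for H2B, -2.05 for H3 and -1.11 for H4, while the median of all genes moved to 0.439, against 0.246 with TMM, a shift of 0.193. HIST2H2BE then gave -0.92 there, below 2-fold. Without the filter HIST1H3E gave -0.99 in the difference of effects. The 14 untested members had too few counts for a test, and 2 replicates per cell group limit the error estimates.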
